A study of Mus musculus with 3 samples.

Results

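The genes that encode the proteins of the cytosolic ribosome were followed one by one through endothelial cells (ECs), microglia and neurons of the mouse retina. They were chosen by symbol alone, as genes named Rpl or Rps followed by a digit together with *Rpsa*, *Rplp0*, *Rplp1* and *Rplp2*, without pseudogene entries, the S6 kinases and *Rps19bp1*. This gave 86 of the 33696 genes in the table. The cells came from retinas at postnatal day 6, dissociated and enriched with beads against CD31 and CD11b, which capture vascular cells and microglia. There were 3 single-cell libraries from mice on a C57BL/6 background. They came from wild-type mice (WT), from mice with a whole-body knockout of *Tspan12* (*Tspan12* KO), and from mice with floxed *Ctnnb1* alleles and Pdgfb-iCreERT that had received tamoxifen after birth, which removes *Ctnnb1* from endothelial cells (*Ctnnb1* cKO). Retinas of several mice were pooled for each library, and WT and knockout mice came from separate litters. *Tspan12* encodes a tetraspanin of the Norrin receptor complex, and *Ctnnb1* encodes beta-catenin, the effector of that pathway.

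Ribosomal proteins are made in near equal numbers, as each ribosome takes 1 copy of most of them. Their mRNAs are short and very abundant, and many begin with a C followed by a run of pyrimidines, the terminal oligopyrimidine (TOP) motif, through which the mTOR pathway controls their translation. Cells that grow and divide put a large part of their transcripts into these mRNAs, and differentiated neurons put in less. Ribosomal protein genes also have many near-identical processed pseudogenes in the mouse genome, so their counts depend on how reads that match several places were assigned.

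Each library was 1 sample of its genotype, so genotype and library cannot be told apart and no value below has a replicate check. No p-value was computed. All intervals given are 95% intervals of counting error alone, and a member called higher or lower is one whose log2 ratio to WT was at least 0.5 in size. The libraries held 9951 WT, 14426 *Tspan12* KO and 9151 *Ctnnb1* cKO barcodes, with medians of 4974, 3166 and 2790 unique molecular identifiers (UMIs, each marking 1 captured transcript). Cell barcodes common to a pair of libraries numbered 21 to 37. Median mitochondrial shares were 2.31, 1.80 and 0.374% of UMIs in the same order. After filtering, ECs numbered 538, 284 and 2705, microglia 289, 365 and 2125, and neurons 2646, 5799 and 2278. *Tspan12* stood at 95.9, 83.8 and 40.1 CPM (UMIs of a gene when all UMIs of the class are scaled to 1000000) in ECs and *Ctnnb1* at 523, 616 and 444 CPM. A 3′ count can remain on a deleted allele, so these levels did not serve to judge the labels.

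All 8 endothelial markers were detected in the ECs of every library, with summed levels from 6964 to 8644 CPM, and all 8 microglial markers were detected in microglia, at 19819 to 24949 CPM. Neurons were the pooled rod-like, cone-like, bipolar-like and amacrine-like cells. Of the WT neurons 1157 were rod-like, as were 2392 of *Tspan12* KO and 1767 of *Ctnnb1* cKO. Both knockout libraries also rested on a particular neuronal cluster. A rod-like cluster of 1813 cells held 1717 *Ctnnb1* cKO cells, and a bipolar-like cluster of 1361 *Tspan12* KO, 182 WT and 134 *Ctnnb1* cKO cells had a median of 26569 UMIs. Without these clusters the neuronal UMIs went from 27488018 to 19555148 in WT, from 75799036 to 26330551 in *Tspan12* KO and from 8382681 to 1414069 in *Ctnnb1* cKO. The neuronal total, counts and medians are therefore also given without these clusters, a choice made after the data were seen. Values of single genes are given over all neurons, so in the knockout libraries most of the UMIs behind them came from these clusters.

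Of the 86 members, 82 reached a mean of 10 CPM over the 3 libraries in each of the 3 classes. The remaining 4 were paralogues with few or no UMIs. *Rpl10l*, a testis copy of *Rpl10*, had 0 UMIs in all 3 classes of all libraries. *Rps23rg1*, *Rpl39l* and *Rpl3l*, the last a muscle copy of *Rpl3*, did not pass 6.48 CPM in any class of any library. Counting error was small for the 82. Its 95% half-width had a median over members of 0.689 to 3.41% of the level, and it was widest for the least abundant member, *Rps27rt*, at 23.2% in WT microglia.

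The start of a ribosomal protein mRNA is its best known shared feature, and the bases around the RefSeq start site were read for 68 of the 86 members, which have 80 annotated starts (build GRCm38.p6). A TOP-like run, defined as a C within 5 bases of the start and at least 4 further C or T on the same strand, was present at 34 of 80 starts (42.5%) against 18.3% of 32851 starts of all genes. The letters CTTTCC between 10 bases before and 20 bases after the start, on the same strand, were found at 11 of 80 (13.75%) against 1.28% of all starts. The windows below run from 10 bases before the start to 20 after it and carry the run in capitals. They are shown because the first 5 genes stood above the other members in all 3 classes of *Ctnnb1* cKO and the last 3 stood below them.
*Rpl35*, chr2:39005112-39005141, minus strand: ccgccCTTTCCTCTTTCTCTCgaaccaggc
*Rps28*, chr17:33824543-33824572, minus strand: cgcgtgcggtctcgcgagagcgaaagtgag
*Rps27*, chr3:90213629-90213658, minus strand: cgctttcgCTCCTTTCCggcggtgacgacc
*Rpl38*, chr11:114668570-114668599, plus strand: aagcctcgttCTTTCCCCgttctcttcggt
*Rps26*, chr10:128626487-128626516, minus strand: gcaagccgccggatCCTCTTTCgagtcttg
*Rpl13a*, chr7:45128726-45128755, minus strand: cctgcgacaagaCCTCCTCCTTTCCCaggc
*Rpl14*, chr9:120571507-120571536, plus strand: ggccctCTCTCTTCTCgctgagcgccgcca
*Rps3*, chr7:99483690-99483719, minus strand: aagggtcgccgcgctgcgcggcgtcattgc

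*Rpl35* carried a run of 16 bases and *Rpl13a* one of 14, and their log2 ratios in *Ctnnb1* cKO had means over the 3 classes of 2.92 and −0.35. *Rps28* and *Rps3* had no run in the window, at 2.89 and −0.31. The run was thus present and absent on both sides. Only bases near the annotated start were read, so a missing run does not show that the mRNA lacks the motif. The run was found at 10 of 17 starts of the members that stood above the others in all 3 classes, at 4 of 7 starts of those that stood below, and at 18 of 49 starts of members that did neither. In the 250 bases before the start, on either strand, CCGGAAG, the core bound by ETS factors, was present for 20 of 80 member starts (25%) against 6.91% of all starts. GGGCGG, the core bound by SP factors, was present for 37 of 80 (46.25%) against 32.7%, and AAGATGG, found in YY1 sites, for 5 of 80 (6.25%) against 4.49%. CCGGAAG was found at 8 of 17 starts of the members above the others and at 1 of 7 of those below. A match of letters is not a bound site.

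The total over the 86 genes was compared first, to ask how much of each class's mRNA they made up. Ribosomal protein UMIs made up 17.4, 18.9 and 25.4% of the EC UMIs of WT, *Tspan12* KO and *Ctnnb1* cKO. In microglia the shares were 9.49, 10.2 and 16.4%, and in neurons 6.96, 8.72 and 15.2%. ECs held the highest share and neurons the lowest in every library, and *Ctnnb1* cKO stood highest in every class. The log2 ratio of *Ctnnb1* cKO to WT was 0.55 (0.54 to 0.55) in ECs, 0.79 (0.78 to 0.79) in microglia and 1.13 (1.12 to 1.13) in neurons. For *Tspan12* KO it was 0.12 in ECs, 0.11 in microglia and 0.32 in neurons. The ECs, in which Cre is active, thus had the smallest ratio of the 3 in *Ctnnb1* cKO over all cells. This order did not hold in every set of cells. Among cells of 2000 to 10000 UMIs the *Ctnnb1* cKO ratio was 0.93 in ECs, 0.47 in microglia and 1.02 in neurons, and among cells without UMIs of the cycling genes it was 0.77, 0.68 and 1.12, so that microglia had the smallest ratio in both. A share says nothing on the number of ribosomal protein transcripts in a cell, since it also moves when other transcripts do.

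Single cells showed the same order. The median share per cell was 16.1, 18.4 and 22.8% in ECs of WT, *Tspan12* KO and *Ctnnb1* cKO. In microglia it was 9.999, 10.4 and 16.6%, and in neurons 6.69, 7.54 and 15.7%. The lower quartile of *Ctnnb1* cKO neurons, 12.7%, lay above the 90th percentile of WT neurons, 10.8%, while in ECs the lower quartile of 16.6% lay inside the WT interquartile range of 12.02 to 19.8%. The WT microglia spread widely, with 10th and 90th percentiles of 6.09 and 20.1%.

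**Figure D1:**
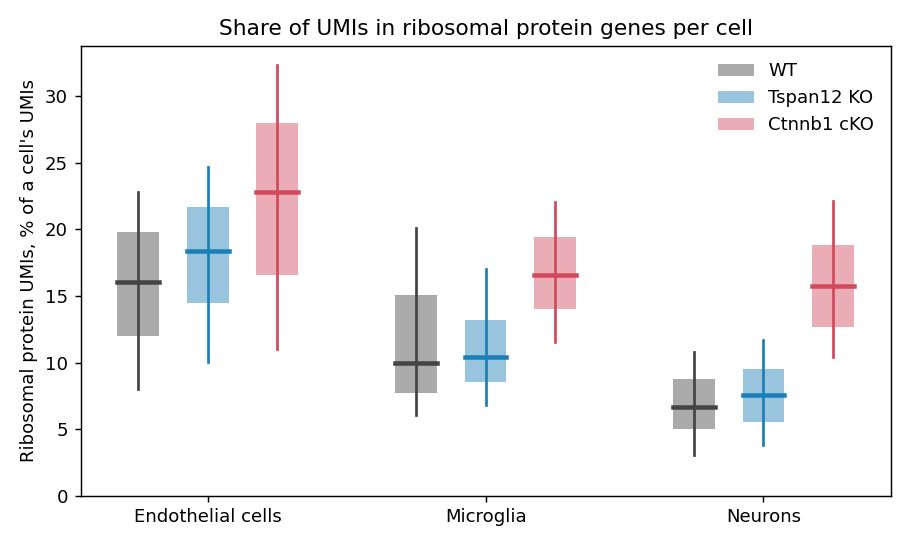
Share of a cell's UMIs that fell in the 86 ribosomal protein genes (y axis, percent), for each class and library (x axis and colour). Boxes span the quartiles of cells, thick lines are medians and thin lines run from the 10th to the 90th percentile, and the *Ctnnb1* cKO medians of 22.8, 16.6 and 15.7% are the highest of their classes.

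The ECs and microglia of the libraries fell into different clusters, so the total was also taken within clusters, a view added after the data were seen. In an EC cluster of 79 WT, 119 *Tspan12* KO and 2111 *Ctnnb1* cKO cells the shares were 18.4, 18.1 and 24.7%. In the EC cluster that held 458 WT, 159 *Tspan12* KO and 27 *Ctnnb1* cKO cells they were 17.3, 19.4 and 23.5%. *Ctnnb1* cKO was thus higher inside both, by log2 ratios of 0.42 and 0.44, whereas *Tspan12* KO stood at −0.03 in one and 0.16 in the other. The third EC cluster, led by *Eln* and *Lrg1*, had 567 of its 574 cells from *Ctnnb1* cKO and a share of 28.1% in them.

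Microglia held a cluster of low UMI count, led by *Hmox1*, *Clec7a* and *Lgals3*, in which the shares were 18.1% of UMIs in 99 WT cells, 17.2% in 74 *Tspan12* KO cells and 20.7% in 51 *Ctnnb1* cKO cells. In the main WT microglial cluster 161 WT cells had a share of 8.64%, 254 *Tspan12* KO cells one of 9.96% and 28 *Ctnnb1* cKO cells one of 11.7%. The *Ctnnb1* cKO log2 ratios within these clusters, 0.19 and 0.44, were below the 0.79 of all microglia. The *Tspan12* KO ratios were −0.08 and 0.21, and over all microglia the sign turned to −0.18 among cells of 2000 to 10000 UMIs. For microglia, the direction in *Tspan12* KO was therefore not fixed by these data.

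Among neurons, 6 clusters had at least 20 cells of every library, and *Ctnnb1* cKO was higher than WT in all 6, by log2 ratios from 0.29 in the rod-like cluster dominated by its own cells to 0.99 in an amacrine-like cluster of 407 WT and 169 *Ctnnb1* cKO cells. For *Tspan12* KO the ratios in these 6 clusters ran from −0.012 to 0.37, with 0.02 in the rod-like and 0.37 in the deep bipolar-like cluster, so it was not higher than WT in every cluster. Over amacrine-like cells alone the ratios were 0.23 in *Tspan12* KO and 1.06 in *Ctnnb1* cKO. Without the rod-like cluster and the deep bipolar-like cluster, neurons stood at 0.16 and 0.99. The *Tspan12* KO value thus rested in large part on these clusters, at 0.32 with them and 0.16 without.

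Other measures moved with the *Ctnnb1* cKO library in all 3 classes. Mitochondrial transcripts made up 3.30, 2.18 and 0.743% of EC UMIs in WT, *Tspan12* KO and *Ctnnb1* cKO, 4.07, 3.20 and 1.02% of microglial UMIs and 2.85, 2.32 and 0.893% of neuronal UMIs. Of 13 mitochondrial genes, 12 were lower in *Ctnnb1* cKO in each class. Median UMIs per cell were 15785, 14797.5 and 3347 in ECs, 9667, 7442 and 3072 in microglia and 5698, 4494 and 1839.5 in neurons. With the total taken without ribosomal protein and mitochondrial genes, the *Ctnnb1* cKO ratios were 0.65, 0.85 and 1.23. The 8 microglial markers summed to 152, 109 and 688 CPM in ECs, with none at 0, and the 5 erythrocyte markers to 159, 3074 and 196 CPM. The part of depth, mitochondrial content and foreign transcripts in the ribosomal protein values was not tested.

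Gene by gene, the 82 members did not move as a block. In *Ctnnb1* cKO the log2 ratios ran from −0.87 to 2.99 in ECs, from −0.70 to 3.01 in microglia and from −0.16 to 3.37 in neurons. Their medians were 0.35, 0.56 and 0.91, against −0.13, 0.02 and −0.14 over all genes tested. In ECs 30 members were higher and 6 lower, where 16.2% of 8910 genes tested were higher and 27.9% lower. In microglia 45 were higher and 3 lower, with 21.9 and 21.3% of 8656 genes, and in neurons 66 were higher and 0 lower, with 13.9 and 27.2% of 9943 genes. Among cells of 2000 to 10000 UMIs 52 were higher and 1 lower in ECs and 27 higher and 5 lower in microglia. With every cell weighing the same, 29 were higher and 9 lower in ECs and 27 and 6 in microglia. The share of all genes was not taken in either setting, so these counts are not read as particular to the members. At a log2 ratio of 1, 15, 17 and 37 members were higher in ECs, microglia and neurons, against 5.79, 6.82 and 4.26% of all genes, and 0 were lower in each class, against 9.33, 7.65 and 9.52%.

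**Figure D2:**
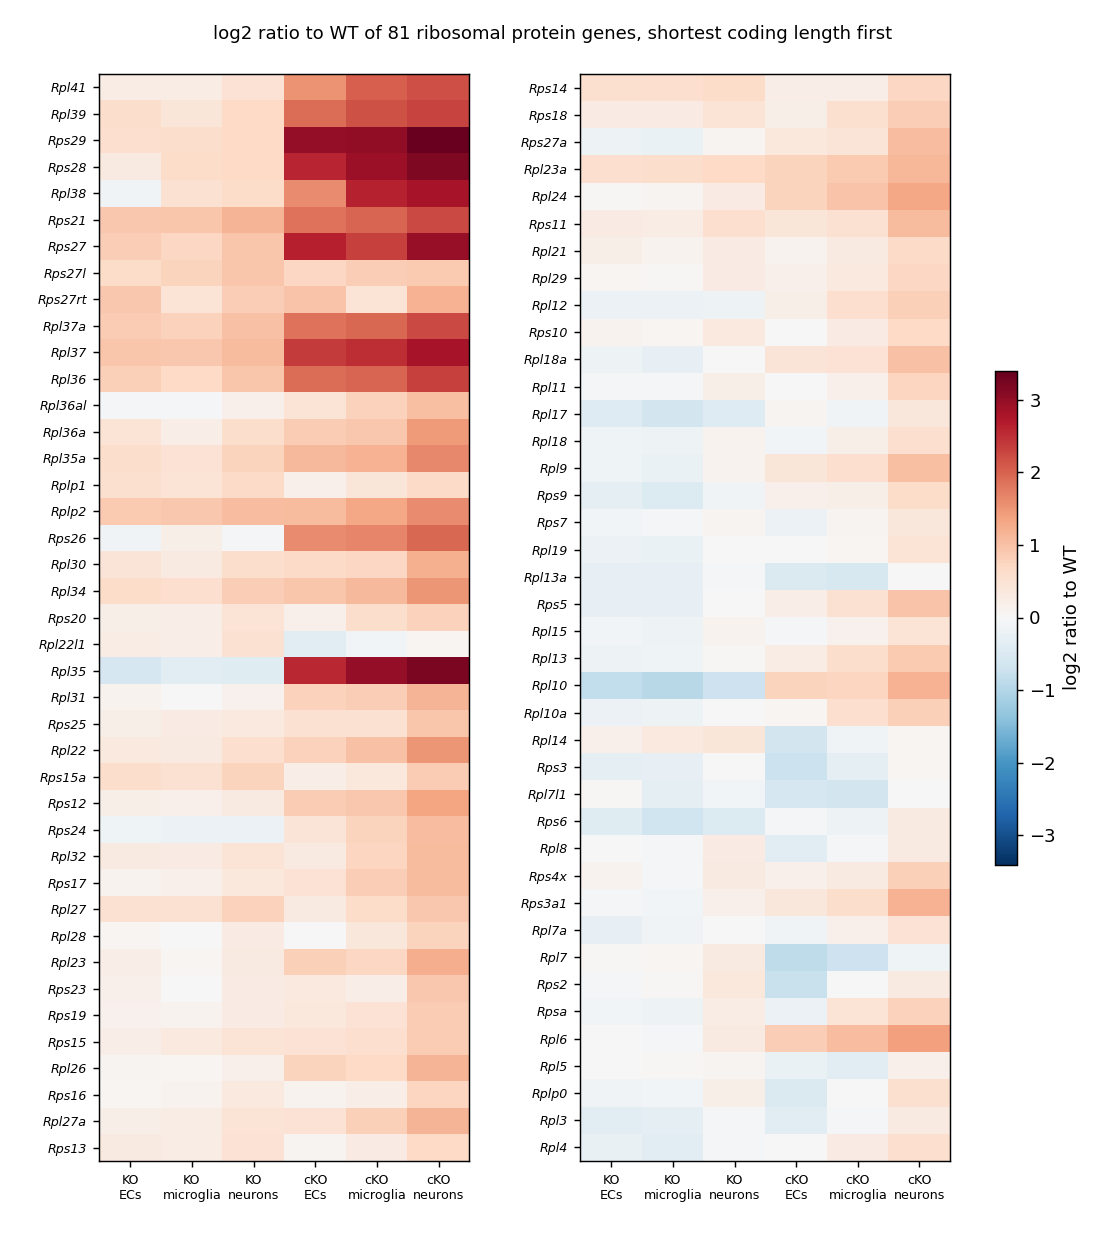
Log2 ratio to WT (colour, red higher and blue lower) of each of 81 of the 82 members in ECs, microglia and neurons of *Tspan12* KO (KO, left 3 columns of each panel) and *Ctnnb1* cKO (cKO, right 3 columns). Genes are ordered by coding length, shortest at the top left, and the deepest red is in *Ctnnb1* cKO, up to 3.37 for *Rps29* in neurons.

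Members that shifted the same way in every class were set apart. In *Ctnnb1* cKO 29 members were higher in all 3 classes and 0 lower, where 6.32% of the 6992 genes tested in all classes were higher in all and 10.9% lower. Among the 29 were *Rps29*, *Rpl35*, *Rps28*, *Rps27*, *Rpl37*, *Rpl38*, *Rpl36*, *Rpl39*, *Rpl37a*, *Rps21*, *Rpl41*, *Rps26*, *Rpl35a*, *Rplp2*, *Rpl34*, *Rpl22*, *Rpl36a*, *Rpl6*, *Rps12*, *Rpl24*, *Rpl23*, *Rpl30*, *Rpl10*, *Rpl26*, *Rpl31*, *Rpl23a*, *Rps25* and *Rps27l*. They include the smallest proteins of both subunits.

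*Rps29*, a zinc-binding protein of the small subunit head, had the largest ratio in each class. It stood at 1078, 1597 and 8535 CPM in ECs of WT, *Tspan12* KO and *Ctnnb1* cKO, at 997, 1501 and 8035 CPM in microglia and at 481, 766 and 4973 CPM in neurons. The *Ctnnb1* cKO log2 ratios were 2.99 (2.96 to 3.01), 3.01 (2.96 to 3.07) and 3.37 (3.34 to 3.397). The level was thus about equal in ECs and microglia of each library, and highest in *Ctnnb1* cKO throughout.

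*Rpl35*, which sits beside the exit of the peptide tunnel of the large subunit and whose start is shown above with the longest of the runs printed, stood on opposite sides of WT in the knockout libraries. Its levels were 646, 439 and 3834 CPM in ECs of WT, *Tspan12* KO and *Ctnnb1* cKO. In microglia they were 331, 260 and 2634 CPM and in neurons 226, 168 and 2090 CPM. In all 3 classes *Tspan12* KO was the lowest library, with log2 ratios of −0.56, −0.35 and −0.42, and *Ctnnb1* cKO the highest, with 2.57, 2.99 and 3.21.

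*Rps28*, another small subunit head protein, stood at 906, 1117 and 5450 CPM in ECs, at 550, 840 and 4163 CPM in microglia and at 402, 640 and 3638 CPM in neurons of WT, *Tspan12* KO and *Ctnnb1* cKO. *Rps27*, a zinc finger protein of the small subunit, stood at 897, 1596 and 5559 CPM in ECs, 567, 926 and 2816 CPM in microglia and 451, 868 and 3503 CPM in neurons. For both, the *Ctnnb1* cKO level exceeded both other libraries in each class, with log2 ratios from 2.31 to 3.18. *Rpl37*, of the large subunit, followed with log2 ratios of 2.39, 2.501 and 2.81, from 961, 548 and 420 CPM in WT.

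Since the median member was higher in each class, each ratio was also taken after the median of the members in that class and library was removed. On this centred scale 16 members were higher by 0.5 in all 3 classes of *Ctnnb1* cKO and 10 were lower, where 1.23% of genes were higher and 38.4% lower. The 16 all belonged to the 29 and, among the genes listed, ran from *Rps29* to *Rpl34*. They include *Rps26*, which contacts the mRNA at the exit channel, at 1149, 1061 and 3485 CPM in ECs. Their summed share of ribosomal protein UMIs was 13.4, 17.4 and 31.9% in ECs of WT, *Tspan12* KO and *Ctnnb1* cKO, 14.1, 18.6 and 33.5% in microglia, and 13.1, 17.1 and 30.4% in neurons. The share of these genes was therefore nearly the same in the 3 classes of a library and differed between libraries. As the 16 were chosen on these ratios, the shares describe them and support nothing.

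Summed over these 16 genes the *Ctnnb1* cKO log2 ratio was 1.79, 2.04 and 2.34 in ECs, microglia and neurons. Over all other members it was 0.20, 0.42 and 0.81. In *Tspan12* KO the same sums gave 0.50, 0.52 and 0.71 for the 16 and 0.05, 0.03 and 0.26 for the rest.

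The share of the 16 genes, which were chosen over these same cells, was also read within single clusters. In the EC cluster with 458 WT and 27 *Ctnnb1* cKO cells the 16 made up 13.4, 17.4 and 31.4% of ribosomal protein UMIs in WT, *Tspan12* KO and *Ctnnb1* cKO. In the microglial cluster with 161 WT and 28 *Ctnnb1* cKO cells they made up 13.97, 18.7 and 29.5%. For neurons, the clusters with at least 20 cells of every library were read. The WT values ran from 12.6 to 14.04%, the *Tspan12* KO values from 16.96 to 19.3% and the *Ctnnb1* cKO values from 27.4 to 32.8%. A higher *Ctnnb1* cKO share follows from that choice of genes, so these values describe the 16 and support nothing.

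The 10 members lower on the centred scale were *Rpl7*, *Rpl7l1*, *Rpl13a*, *Rpl14*, *Rps3*, *Rpl22l1*, *Rpl5*, *Rpl8*, *Rps2* and *Rpl3*. *Rpl7*, of the large subunit, stood at 2538, 2629 and 1389 CPM in ECs of WT, *Tspan12* KO and *Ctnnb1* cKO. In microglia it stood at 1147, 1201 and 705 CPM and in neurons at 1192, 1471 and 1068 CPM. *Ctnnb1* cKO was the lowest library in each class, with log2 ratios of −0.87, −0.70 and −0.16, and *Rpl7* was the only member below 0 in neurons.

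*Rps3*, a small subunit head protein at the mRNA entry that also serves in DNA repair, stood at 2674, 2118 and 1626 CPM in ECs of WT, *Tspan12* KO and *Ctnnb1* cKO, at 1257, 1028 and 1025 CPM in microglia and at 1044, 1025 and 1097 CPM in neurons. *Rps2*, a neighbour of *Rps3* at the mRNA entry, stood at 4672, 4463 and 2787 CPM in ECs, 1665, 1722 and 1665 CPM in microglia and 963, 1238 and 1182 CPM in neurons. The EC level of *Rps2* was thus lowest in *Ctnnb1* cKO, while the microglial levels were nearly equal in the 3 libraries. *Rpl13a*, which leaves the ribosome in interferon-treated myeloid cells, had *Ctnnb1* cKO ratios of −0.50, −0.56 and 0.01. *Rpl3*, which lies near the peptidyl transferase centre, had −0.39, −0.06 and 0.31.

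**Figure D3:**
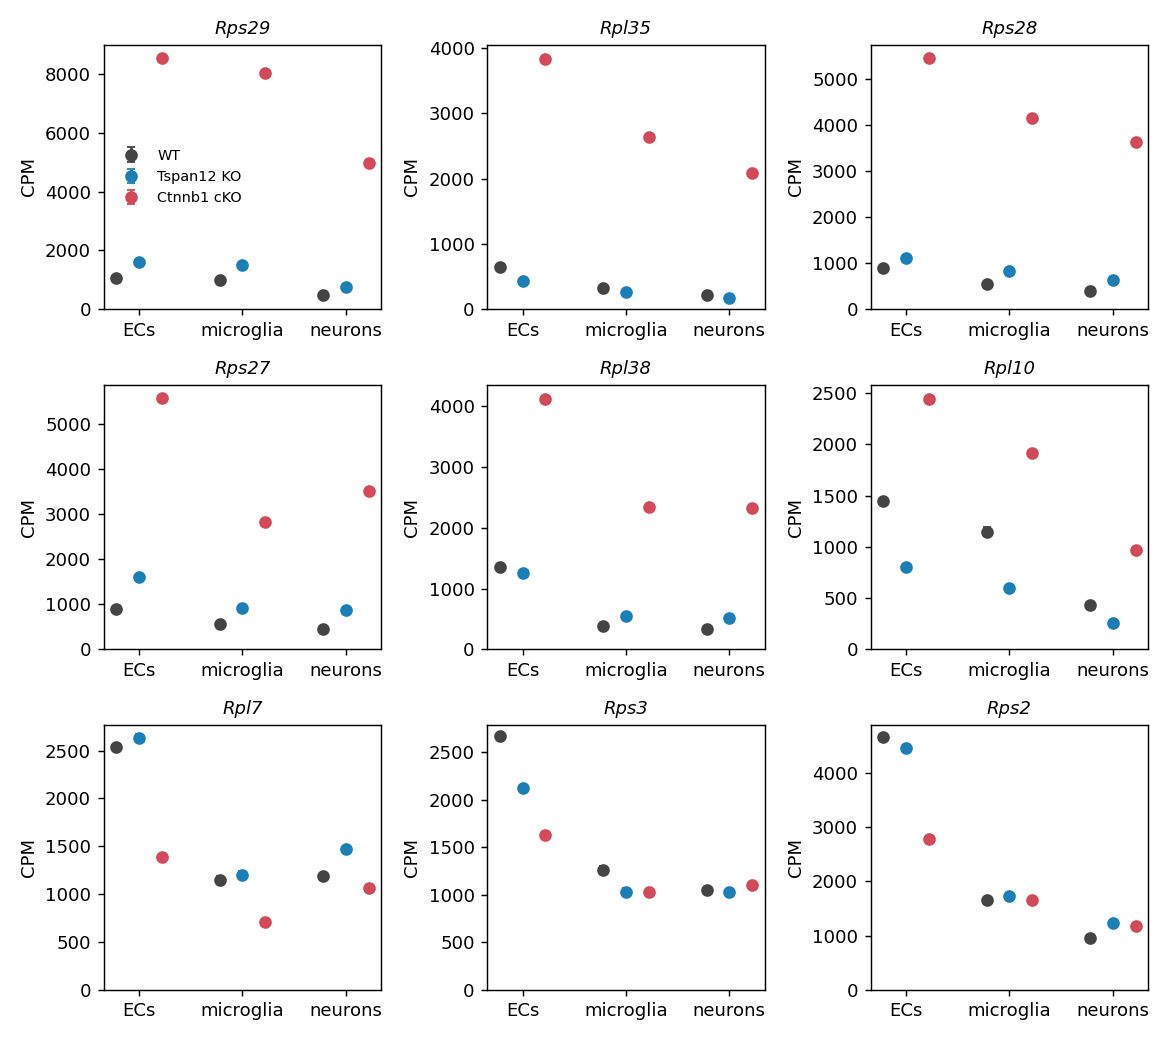
Level of 9 members in CPM (y axis, linear from 0) in ECs, microglia and neurons (x axis) of the 3 libraries (colour). Bars are 95% Poisson intervals for counting error and are mostly smaller than the points. *Rps29*, *Rpl35*, *Rps28*, *Rps27* and *Rpl38* are highest in *Ctnnb1* cKO in every class, *Rpl10* is lowest in *Tspan12* KO in every class, and *Rpl7* is lowest in *Ctnnb1* cKO in every class.

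*Tspan12* KO showed smaller ratios. They ran from −0.83 to 0.95 in ECs, from −0.95 to 0.94 in microglia and from −0.71 to 1.15 in neurons, with medians of 0.12, 0.07 and 0.31 against 0.02, 0.08 and −0.02 over all genes. In ECs 17 members were higher and 2 lower, where 10.1% of genes were higher and 8.19% lower. In microglia 15 were higher and 3 lower, where 13.9 and 7.67% of genes were, and in neurons 25 were higher and 1 lower, where 7.47 and 8.04% of genes were. The microglial share of members higher, 18.3%, was near the share of all genes. Among cells of 2000 to 10000 UMIs the microglial counts turned to 3 higher and 13 lower, and with every cell weighing the same they were 7 and 5. Without the rod-like and the deep bipolar-like cluster 17 members were higher and 4 lower in *Tspan12* KO neurons, with a median of 0.13. In *Ctnnb1* cKO neurons without them 61 were higher and 0 lower, with a median of 0.76. The share of all genes was not taken in these sets of cells, so these counts are not read as particular to the members. At a log2 ratio of 1, 0, 0 and 3 members were higher in ECs, microglia and neurons, against 1.48, 1.71 and 0.925% of genes, and 0 were lower in each, against 1.9, 1.72 and 1.75%.

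In all 3 classes of *Tspan12* KO 13 members were higher and 1 was lower, where 1.84% of genes were higher in all classes and 0.558% lower. The 13 were *Rps21*, *Rpl37*, *Rplp2*, *Rpl37a*, *Rpl36*, *Rps27*, *Rps27l*, *Rpl34*, *Rpl27*, *Rps15a*, *Rpl23a*, *Rps29* and *Rps14*. *Rps21*, a small protein of the small subunit, stood at 1247 CPM in WT and 2367 in *Tspan12* KO ECs, at 783 and 1499 CPM in microglia and at 498 and 1106 CPM in neurons. *Rpl37* stood at 961 and 1853 CPM, 548 and 1039 CPM, and 420 and 891 CPM in the same order. For both genes *Tspan12* KO stood above WT in each class, by log2 ratios from 0.92 to 1.15, and *Ctnnb1* cKO stood above *Tspan12* KO, at 4504 CPM for *Rps21* and 5035 CPM for *Rpl37* in ECs.

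The member that was lower in all 3 classes was *Rpl10*, an X-linked large subunit protein that joins last, in the cytoplasm, and is needed before the subunits can pair. Its levels were 1442, 808 and 2441 CPM in ECs of WT, *Tspan12* KO and *Ctnnb1* cKO, 1149, 596 and 1911 CPM in microglia, and 430, 262 and 970 CPM in neurons. The order of the libraries was the same in each class. The *Tspan12* KO log2 ratios were −0.83 (−0.88 to −0.79), −0.95 (−1.03 to −0.86) and −0.71 (−0.75 to −0.68), and the *Ctnnb1* cKO ratios were 0.76, 0.73 and 1.17. On the centred scale *Rps6* and *Rpl17* joined *Rpl10* below −0.5 in *Tspan12* KO. *Rps6*, whose protein is phosphorylated downstream of mTOR, had uncentred ratios of −0.41, −0.68 and −0.47, and *Rpl17* had −0.45, −0.63 and −0.45. On that scale 7 of the 13 stayed higher in all classes, namely *Rps21*, *Rpl37*, *Rplp2*, *Rpl37a*, *Rpl36*, *Rps27* and *Rpl34*, where 0.572% of genes were higher and 2.32% lower.

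Of the genes named here *Rps14*, *Rpl17* and *Rps15a* are abundant members without a large *Ctnnb1* cKO ratio in ECs. *Rps14* stood at 3071, 4455 and 3599 CPM in ECs, so that *Tspan12* KO was the highest library there. *Rps15a* had the same order, with 3001, 4524 and 3497 CPM. Both knockout comparisons use the same WT library, so a member at an unusual level in WT moves in both.

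**Figure D4:**
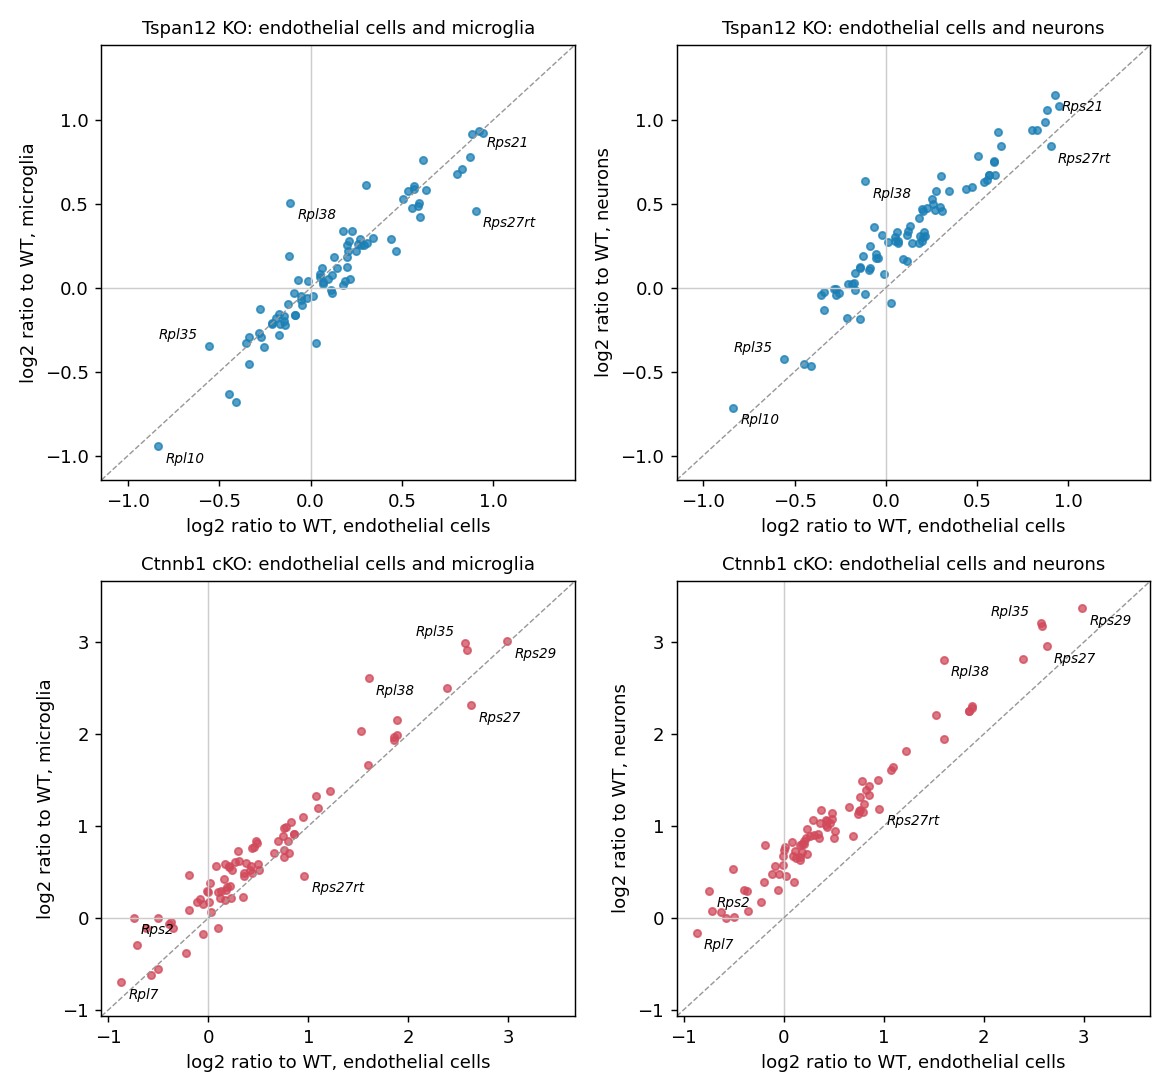
Log2 ratio to WT of the 82 members in ECs (x axis) against microglia (left) and neurons (right), for *Tspan12* KO (top) and *Ctnnb1* cKO (bottom), with the dashed line marking equal ratios. Points scatter around the line for *Tspan12* KO microglia, lie mostly above it in the other panels, and *Rpl38* stands above its neighbours in each panel.

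The ratios of a member were alike across classes. Over the 82 members, Pearson's r between a pair of classes lay between 0.93 and 0.96 in *Tspan12* KO and between 0.96 and 0.99 in *Ctnnb1* cKO. Over 766 other genes of at least 100 CPM it was 0.62 to 0.70 and 0.83 to 0.86. These values are descriptions across genes, and the points of a library share its preparation, its sequencing and its base composition. After centring, a member's ratios lay within 0.5 of each other in all 3 classes for 81 of 82 members in *Tspan12* KO and for 78 in *Ctnnb1* cKO. This count was not taken over other genes, and counting error was small for most of these abundant members.

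Few members stood apart in 1 class once the offset of the class was removed. Among members not shifted alike, the uncentred ratio differed by at least 0.5 from the mean of the other 2 classes for 12 members in ECs, all lower there, for 1 in microglia and for 24 in neurons, all higher there, in *Ctnnb1* cKO. In *Tspan12* KO the count was 1, in ECs. The same counts were not taken over all genes, so they are not read as particular to the members. Much of the difference was the offset of a whole class. The median member differed by −0.38 in ECs and 0.46 in neurons of *Ctnnb1* cKO, and after centring the median size of the difference was 0.11 in ECs, 0.11 in microglia and 0.05 in neurons.

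*Rpl38*, a small large subunit protein required for translation of Hox mRNAs in the mouse embryo, differed most. It stood at 1361, 1260 and 4130 CPM in ECs of WT, *Tspan12* KO and *Ctnnb1* cKO, at 384, 546 and 2340 CPM in microglia, and at 333, 518 and 2333 CPM in neurons. Its *Tspan12* KO ratio was −0.11 in ECs and 0.57 on average in the other classes, and its *Ctnnb1* cKO ratio was 1.60 and 2.71. Centred, ECs were lower by 0.61 and 0.72. The WT EC level exceeded that of WT microglia by a log2 ratio of 1.82, the largest EC excess over microglia of any member in WT.

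The other differences of at least 0.5 after centring were in *Ctnnb1* cKO and concerned *Rps2*, lower in ECs by 0.51, and *Rps27rt*, a near copy of *Rps27* with few UMIs, higher in ECs by 0.52 and lower in microglia by 0.54. *Rps27rt* stood at 30.6, 57.4 and 59.5 CPM in ECs and at 27.7, 38.1 and 38.1 CPM in microglia, and reads that match both it and *Rps27* could be assigned to either. Smaller differences were seen for *Rps27* in *Ctnnb1* cKO microglia (−0.41), for *Rps26* (0.40), *Rpl38* (0.39) and *Rpl35* (0.28) in *Tspan12* KO microglia, for *Rpl7l1* in *Tspan12* KO ECs (0.31), and for *Rps26* (−0.29) and *Rps24* (−0.23) in *Tspan12* KO neurons. In *Ctnnb1* cKO neurons *Rplp0* (0.33), *Rps27l* (−0.33) and *Rpl38* (0.25) differed most.

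The members were next arranged by their place in the ribosome. Of 31 small subunit members, 8, 16 and 27 were higher in *Ctnnb1* cKO ECs, microglia and neurons and 2, 0 and 0 lower, with medians of 0.34, 0.52 and 0.87. Of 43 large subunit members, 19, 26 and 33 were higher and 2, 2 and 0 lower, with medians of 0.42, 0.62 and 1.01. The subunits thus had similar medians in each class. Of the 14 proteins of the small subunit head, 4, 9 and 13 were higher and 1, 0 and 0 lower. Of 7 proteins around the exit of the peptide tunnel, 6 were higher in each class, with medians of 0.78, 0.89 and 1.16. Of all 82 members 36.6, 54.9 and 80.5% were higher and 7.32, 3.66 and 0% lower. Of all genes tested 16.2, 21.9 and 13.9% were higher and 27.9, 21.3 and 27.2% lower. In neurons the count around the tunnel exit was near the share of all members.

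The stalk, the arm of the large subunit that recruits elongation factors, is built on *Rplp0* with pairs of *Rplp1* and *Rplp2*. In ECs of WT, *Tspan12* KO and *Ctnnb1* cKO *Rplp0* stood at 3776, 3469 and 2664 CPM, *Rplp1* at 3026, 4452 and 3381 CPM, and *Rplp2* at 1272, 2349 and 2684 CPM. The 3 parts of 1 structure therefore differed in direction, with *Rplp0* lowest and *Rplp2* highest in *Ctnnb1* cKO. In microglia *Rplp0* stood at 1542, 1441 and 1545 CPM and in neurons at 1265, 1445 and 1835 CPM, and its *Ctnnb1* cKO log2 ratio was −0.50 (−0.52 to −0.48) in ECs, 0.00 in microglia and 0.54 (0.51 to 0.56) in neurons.

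*Rpl5* and *Rpl11* enter the large subunit together with its smallest ribosomal RNA, and the free complex binds MDM2 and holds back p53 degradation. *Rpl5* stood at 1539, 1526 and 1314 CPM in ECs and *Rpl11* at 2713, 2612 and 2719 CPM, so neither reached 0.5 there. In *Ctnnb1* cKO neurons *Rpl11* was higher (0.74) and *Rpl5* was at 0.18. Of 10 p53 target genes on a list kept for this reason, 8 were tested in ECs, where 6 were higher and 0 lower in *Ctnnb1* cKO with a median of 0.75, where 16.2% of all genes were higher and 27.9% lower, with a median of −0.13. *Phlda3*, an inhibitor of Akt, stood at 9.76 CPM in WT and 42.0 in *Ctnnb1* cKO ECs. In microglia 0 of 6 were higher and 1 lower, with a median of −0.16, against 21.9 and 21.3% of all genes and a median of 0.02. In neurons 1 of 7 was higher and 1 lower, with a median of −0.04, against 13.9 and 27.2% and a median of −0.14. In *Tspan12* KO ECs 2 of the 8 were higher and 1 lower, against 10.1 and 8.19% of all genes. The lower one was the cell cycle inhibitor *Cdkn1a*, at 141 CPM in WT and 51.6 in *Tspan12* KO.

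Mutations in genes for ribosomal proteins cause Diamond-Blackfan anaemia, a failure of red cell production. Of 20 such members, 8, 12 and 17 were higher in *Ctnnb1* cKO ECs, microglia and neurons and 0 lower, with medians of 0.39, 0.64 and 0.98. These were near the values over all 82 members, of which 36.6, 54.9 and 80.5% were higher, with medians of 0.35, 0.56 and 0.91. *Rps19*, the most often mutated, stood at 2347, 2597 and 3000 CPM in ECs, 1221, 1323 and 1713 CPM in microglia and 893, 1074 and 1629 CPM in neurons. It was highest in *Ctnnb1* cKO in each class but passed 0.5 in neurons alone, at 0.87. *Rpsa*, also known as the laminin receptor, stood at 3047, 2868 and 2670 CPM in ECs, 1146, 1024 and 1588 CPM in microglia and 893, 1063 and 1550 CPM in neurons, with *Ctnnb1* cKO ratios of −0.19, 0.47 and 0.80.

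The paralogues that passed the level filter in every class were *Rpl22l1*, *Rpl36al*, *Rpl7l1*, *Rps27l* and *Rps27rt*. *Rpl22l1* can take the place of *Rpl22*, which represses it. *Rpl22* stood at 1302, 1653 and 2236 CPM in ECs, 638, 784 and 1268 CPM in microglia and 495, 741 and 1394 CPM in neurons, and *Rpl22l1* at 491, 584 and 383 CPM, 284, 331 and 264 CPM, and 139, 201 and 146 CPM. In *Ctnnb1* cKO *Rpl22* was higher in all 3 classes (0.78, 0.99 and 1.49) and *Rpl22l1* did not reach 0.5 in any (−0.36, −0.10 and 0.07). *Rps27l*, a p53 target and near copy of *Rps27*, stood at 362, 555 and 588 CPM in ECs, 191, 323 and 341 CPM in microglia and 215, 410 and 400 CPM in neurons, so that both knockout libraries stood above WT in each class. *Rpl36al* had *Ctnnb1* cKO ratios of 0.46, 0.77 and 1.03 and *Rpl7l1* of −0.58, −0.62 and 0.00.

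The X-linked members were *Rpl10*, *Rpl36a*, *Rpl39* and *Rps4x*. *Rpl39*, at the tunnel exit, stood at 1099, 1666 and 4071 CPM in ECs, *Rpl36a* at 948, 1314 and 1719 CPM and *Rps4x* at 2820, 3058 and 3197 CPM. *Rpl10* alone of the 4 was below WT in *Tspan12* KO ECs. Genes that mark sex differed between the pools. *Xist*, expressed from the inactive X chromosome, stood at 126, 534 and 199 CPM in ECs, and the Y-linked *Eif2s3y* at 48.2, 8.78 and 12.2 CPM. The part of sex in the levels of X-linked members was not tested.

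The members that stood highest encode short proteins, so the ratio was set against the coding length of the main transcript in GENCODE vM21, which was found for all 86 members. This was added after the data were seen. Over the 82 members Spearman's rho between coding length and log2 ratio was −0.75 in ECs, −0.70 in microglia and −0.70 in neurons of *Ctnnb1* cKO, and −0.69, −0.72 and −0.66 in *Tspan12* KO. Over other genes, 8285 to 9341 per class, it ran from −0.19 to 0.12, positive in ECs and microglia and negative in neurons. These are descriptions across genes of 1 library pair each, and the *Ctnnb1* cKO and *Tspan12* KO values share the WT library.

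Of 11 members under 300 coding bases, all 11 were higher in *Ctnnb1* cKO ECs and neurons and 10 in microglia, with medians of 1.86, 2.29 and 2.16. Of other genes this short, 28.9% of 201 were higher in ECs, 44.3% of 221 in neurons and 42.5% of 207 in microglia, with medians of −0.02, 0.36 and 0.35. Of 23 members of at least 600 coding bases 3 were higher and 6 lower in ECs, with a median of −0.11, and 7 and 3 in microglia, with 0.15. In neurons 11 were higher and 0 lower, with 0.48. Of other genes of at least 600 coding bases 15.4% of 7379 were higher in ECs, 21.0% of 7068 in microglia and 11.2% of 8057 in neurons. In the same order 2001, 1472 and 2262 of them were lower, with medians of −0.12, 0.02 and −0.17. Other short genes thus tended the same way, by less, in microglia and neurons. In ECs their median was −0.02, with 58 higher and 45 lower, which was also above the −0.12 of other genes of at least 600 coding bases. The members of at least 600 coding bases thus lay near the other genes of their length in ECs and stood above them in neurons. *Rpl6* (0.82, 1.04 and 1.40) and *Rpl10* were among the members of at least 600 coding bases that were higher in all 3 classes of *Ctnnb1* cKO. In *Tspan12* KO the members under 300 coding bases had medians of 0.62, 0.61 and 0.84 in ECs, microglia and neurons, and those of at least 600 had −0.09, −0.16 and 0.08. Other genes had medians of 0.10, 0.22 and 0.26 under 300 bases and of 0.03, 0.09 and −0.04 from 600 bases on. The part of capture, fragment size or read assignment in this order was not tested.

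**Figure D5:**
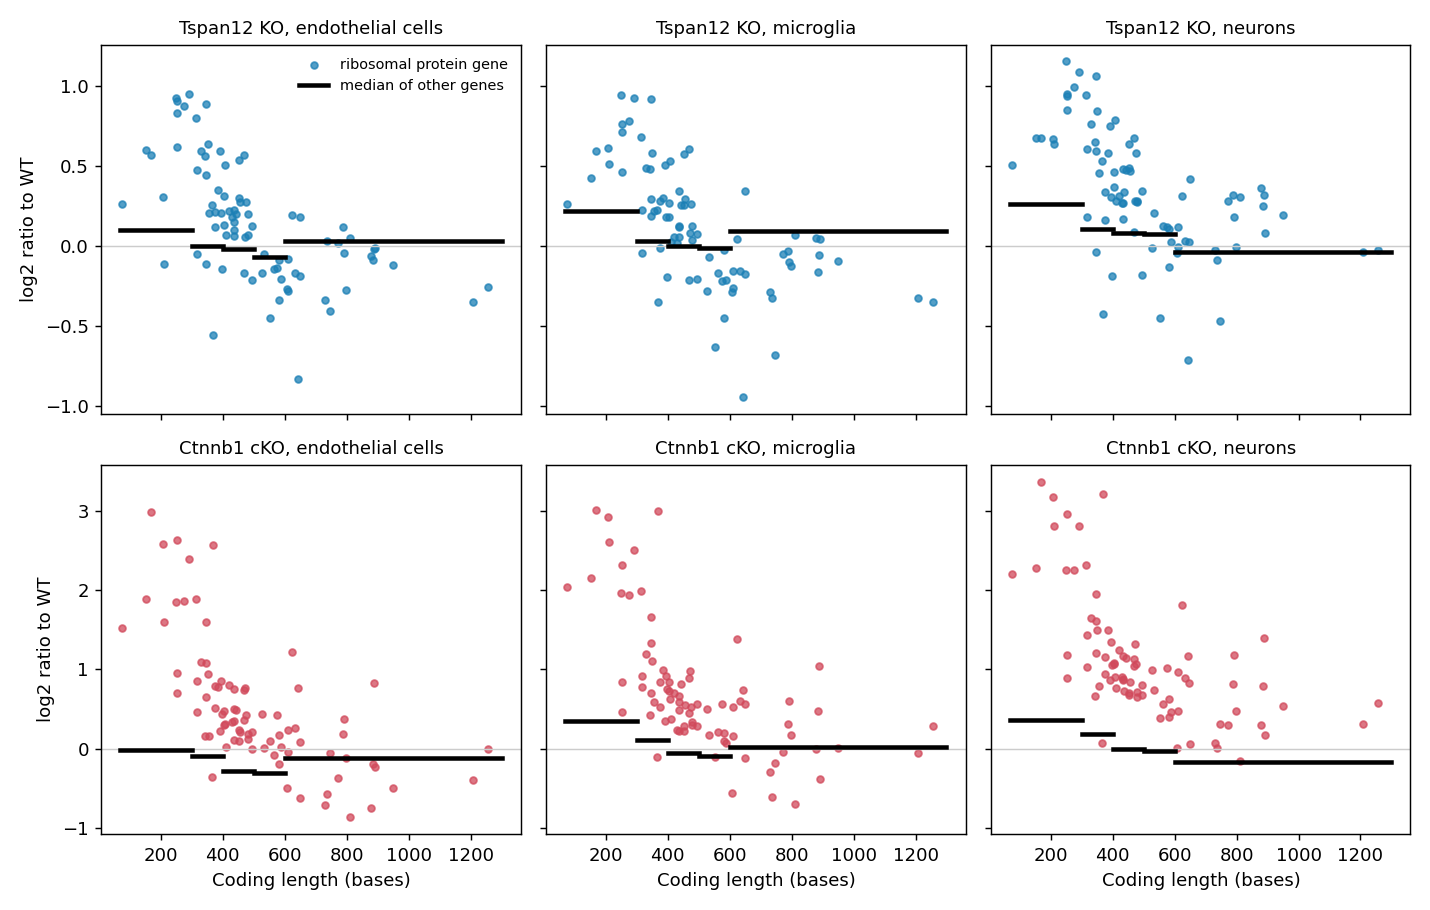
Log2 ratio to WT (y axis) against coding length in bases (x axis) for the 82 members (points) in the 3 classes of *Tspan12* KO (top) and *Ctnnb1* cKO (bottom). Black bars are medians of all other genes tested in bins of coding length, the last bar standing for all genes of at least 600 bases. Members under 300 bases reach medians of 1.86, 2.16 and 2.29 in *Ctnnb1* cKO ECs, microglia and neurons, above the black bars.

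Within a library, the classes were compared gene by gene, since these ratios set cells of 1 preparation side by side. All 82 members were higher in ECs than in microglia in each of the 3 libraries, with median log2 ratios of 0.85 in WT, 0.87 in *Tspan12* KO and, lowest, 0.69 in *Ctnnb1* cKO. All 82 were also higher in ECs than in neurons in each library, with medians of 1.24, 1.06 and 0.67. Microglia exceeded neurons by medians of 0.45, 0.21 and 0.03, with 76, 60 and 44 members above 0. The distance of neurons from both other classes was thus smallest in *Ctnnb1* cKO. Members share the denominators of their classes, so the 82 do not count as separate observations. These counts were not taken over all genes, so they are not read as particular to the members.

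A few members departed from the rest by 0.5 in the same direction in all 3 libraries. *Rps2* was higher in ECs than in neurons of WT, *Tspan12* KO and *Ctnnb1* cKO by 2.28, 1.85 and 1.24, which was 1.04, 0.79 and 0.57 above the median member. *Rps20* (0.60, 0.53 and 0.55 above) and *Rpl10* (0.51, 0.56 and 0.66) did the same, and *Rpl21* stood below (−0.61, −0.51 and −0.57). *Rpl21* and *Rps29* also stood below the median member between ECs and microglia, and *Rps29* was nearly level there, at 0.11, 0.09 and 0.09. Between microglia and neurons *Rpl10*, *Rps12*, *Rpl12*, *Rps29*, *Rpl22l1* and *Rplp1* stood above the median member and *Rpl23a* and *Rpl7* below. *Rpl10* led with log2 ratios of 1.42, 1.18 and 0.98, and *Rps12*, of the small subunit head, followed with 1.26, 1.14 and 0.84. These class patterns held in each library although the levels of *Rpl10* and *Rps29* differed widely between libraries.

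Genes outside the naming rule that belong to the ribosome were read as well. *Fau*, a fusion whose product yields a small subunit protein, had *Ctnnb1* cKO ratios of 1.01, 1.10 and 1.56 in ECs, microglia and neurons. *Rack1*, a scaffold on the small subunit head, had ratios of −0.33, −0.07 and 0.21.

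Lists of other translation genes had lower medians than the members in each class of *Ctnnb1* cKO. Over all genes tested the medians were −0.13 in ECs, 0.02 in microglia and −0.14 in neurons, with 16.2, 21.9 and 13.9% of genes higher and 27.9, 21.3 and 27.2% lower. Of 19 further genes with TOP mRNAs, 2 were higher and 8 lower in *Ctnnb1* cKO ECs with a median of −0.36, 2 and 7 in microglia with −0.05, and 4 and 2 in neurons with 0.24. In ECs the lowest was *Hnrnpa1*, an RNA-binding protein, at 488 CPM in WT and 220 in *Ctnnb1* cKO, and the highest was the non-coding host gene *Snhg8*, at 55.9 and 182 CPM. *Tpt1*, a growth-related protein, was the lowest in microglia (4018 and 1546 CPM). Of 13 subunits of the initiation factor eIF3, 2 were higher and 5 lower in ECs with a median of −0.25, *Eif3j1* (1.18) and *Eif3g* (−0.92) being the extremes. Of 31 tested ribosome assembly genes, 4 were higher and 11 lower in ECs with a median of −0.30, from *Pes1* (0.76) to *Npm1* (−1.14). Of 78 proteins of the mitochondrial ribosome, 4 were higher and 24 lower in ECs with a median of −0.30, from *Mrpl52* (1.28) to *Mrpl50* (−0.99). The medians of these 3 lists were −0.05, 0.24 and 0.15 in microglia and 0.36, 0.06 and 0.08 in neurons. All of them lay below the median of the members in the same class. In neurons the 4 lists lay above the median of all genes, and in ECs below it. The 24 of 78 lower in ECs for the mitochondrial ribosome was near the share of all genes.

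In *Tspan12* KO the medians of the further TOP genes were 0.01, −0.05 and 0.11 in ECs, microglia and neurons, those of eIF3 −0.04, 0.04 and 0.26, those of the assembly genes 0.15, 0.02 and 0.01, and those of the mitochondrial ribosome −0.11, 0.03 and 0.16. *Snhg8* was the highest of the TOP genes in all 3 classes (0.86, 1.08 and 0.90), and *Npm1*, a nucleolar chaperone, the lowest in ECs (−0.66) and neurons (−0.44). Genes of tissue dissociation stress had medians of −0.37, −0.44 and 0.73 in *Tspan12* KO and −0.19, −0.71 and 0.38 in *Ctnnb1* cKO, and 12 cycling genes had −0.44, 0.36 and 0.53, and −0.72, 1.01 and 0.65. Their part in the values of the members was not tested.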

How the data were processed

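Single-cell RNA sequencing was performed with droplet-based 3′ chemistry on P6 retinal cells, 1 library per genotype. The deposited matrices hold raw UMI counts per gene and barcode. The authors made them with Cell Ranger. The matrix headers give version 8.0.1, which differs from the methods. The submitters' processing notes name GRCm39 where the methods name an older build, so the build was not settled and positions are given only for RefSeq start sites. How reads matching several places were treated is not given in the sources used here. The gene table and all 3 libraries were used.

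Kept barcodes had 250 genes or more, 500 UMIs or more and a mitochondrial share of 15% or less. Scrublet (scanpy version 1.11.5) gave doublet scores, and the top scores were removed at 0.8% per 1000 cells (760 WT, 1656 *Tspan12* KO and 665 *Ctnnb1* cKO), because the automatic threshold called 0, 0 and 323. Counts were scaled to 10000 per cell and logged, and 2000 variable genes (2 of them members), 30 components, 20 neighbours and leidenalg version 0.10.2 at resolution 1 gave 30 clusters, without integration. A cluster was named from fixed markers when at least 3 were raised by a log2 fold of 1 and seen in 10% of its cells, unless markers of another class outnumbered them among its 10 leading genes. Names stand for cells like that class, and unnamed cells were left out.

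UMIs were summed per class and library and divided by the total (CPM). Totals were 2651194 to 75799036 UMIs. Knockout libraries were set against WT as log2 ratios, with exact Poisson intervals for CPM, exact conditional binomial intervals for ratios and a floor of 3 counts. Genes with a mean of 10 CPM over the libraries were read, and 0.5 was the threshold. The script was tested on simulated data. TMM factors came from edgeR version 4.0.16 in R version 4.3.3, with scipy version 1.17.1, pandas version 2.3.3, numpy version 2.4.6 and Python version 3.11.15. Alternatives changed the scaling, the cells, the clusters and the thresholds.

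Members and lists were chosen with earlier results of these data known. Genes named were the members shifted alike, the 3 largest and 3 smallest ratios and class differences, paralogues, stalk, MDM2-binding, X-linked and missed members, *Rps19*, *Rpsa* and the extremes of the other lists. *Rpl6*, *Rps14*, *Rps12*, *Rps20*, *Rpl12*, *Rpl21*, *Rpl22* and *Rps24* beyond that rule, and the EC cluster genes, were named after their values were seen. Samples of other data sets were not used here. Some genes are not reported here.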

Additional observations from a re-analysis of the deposited data

Results flagged for a closer look

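*Rplp0*, the base of the ribosomal stalk, was singled out because the same contrast pointed in opposite directions in a pair of classes. In *Ctnnb1* cKO its log2 ratio to WT was 0.54 in neurons and −0.50 in ECs, with 0.00 in microglia. With 1 library per genotype the difference was not tested. The median member also differed between these classes, at 0.91 in neurons and 0.35 in ECs. Once each class was centred on its members, *Rplp0* in neurons stood 0.33 above the mean of the other classes.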

How the results depend on the processing

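The log2 ratio of the ribosomal protein total kept its direction in every class and library under the alternatives below, except in *Tspan12* KO microglia, and within single clusters, where *Tspan12* KO also stood at −0.031 in 1 EC cluster and −0.012 in 1 neuronal cluster. In *Tspan12* KO microglia it turned from 0.11 to −0.18 in cells of 2000 to 10000 UMIs, to −0.053 when every cell weighed the same and to −0.029 in cells without UMIs of the cycling genes. The cause was not tested. Values that moved beyond their counting interval are given in the order ECs, microglia and neurons. With TMM scaling they were 0.10, 0.040 and 0.47 in *Tspan12* KO and 0.69, 0.84 and 1.22 in *Ctnnb1* cKO, and TMM shifted all genes by 0.14 in *Ctnnb1* cKO ECs and *Tspan12* KO neurons. With totals that leave out members and mitochondrial genes they were 0.13 in ECs and 0.34 in neurons of *Tspan12* KO, and 0.65, 0.85 and 1.23 in *Ctnnb1* cKO. With cells gated on markers they were 0.13, 0.079 and 0.29, and 0.57, 0.76 and 1.09. With doublets kept they were 0.11, 0.075 and 0.23, and 0.56, 0.85 and 1.11. In cells of 2000 to 10000 UMIs they were 0.32 in ECs and 0.12 in neurons of *Tspan12* KO, and 0.93, 0.47 and 1.02 in *Ctnnb1* cKO. With every cell weighing the same they were 0.19 and 0.15, and 0.49, 0.53 and 1.20. In cells without cycling UMIs they were 0.30 and 0.12, and 0.77, 0.68 and 1.12. Neurons moved to 0.19 and 1.32 (*Tspan12* KO and *Ctnnb1* cKO) with rod-like cells alone and to 0.28 and 0.95 with clustering without members. That clustering held 3242 WT, 6655 *Tspan12* KO and 583 *Ctnnb1* cKO neurons. In it a cluster of 1605 cells, 1350 of them *Ctnnb1* cKO, had rod markers raised but was left unnamed. With amacrine-like cells alone neurons moved to 0.23 and 1.06, and without the pair of doubted clusters to 0.16 and 0.99, both chosen after seeing the data.

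The count of members higher in all 3 classes of *Tspan12* KO moved from 13 to 3 in cells of 2000 to 10000 UMIs, 7 with every cell weighing the same, 8 in cells without cycling UMIs, 0 at a threshold of 1 and 7 when centred. The count lower moved from 1 to 2 with doublets kept, 4 at a threshold of 0.3, 0 at 1 and 3 when centred. In *Ctnnb1* cKO the count higher moved from 29 to 15 at a threshold of 1 and to 16 when centred, and the count lower from 0 to 10 when centred. The other 56 of 68 counts stayed within 1.5 times. Apart from the centred counts, the share of all genes in all 3 classes was not taken under these alternatives.

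No paired analysis was possible because each genotype has 1 library. Depth limits *Rps27rt* and the paralogues under 10 CPM, most of all in WT microglia with 289 cells. For the same reason no library was left out.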

Other observations

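Classes outside the 3 compared gave further values. Mural-like cells are the pericytes and smooth muscle cells of the vessel wall. Their ribosomal protein shares were 18.2, 20.6 and 25.7% of UMIs, ordered as WT, *Tspan12* KO and *Ctnnb1* cKO. These values lay close to the EC shares of the same libraries. The WT share rests on only 13 cells, below the 20 asked of a library within clusters. *Tspan12* KO had 62 mural-like cells and *Ctnnb1* cKO had 90. In progenitor-like cells, which numbered 1398, 1336 and 565, the shares were 9.60, 9.93 and 14.97%, with log2 ratios of 0.05 and 0.64. Neurogenic precursor-like cells, which numbered 676, 507 and 67, had 12.3, 11.5 and 13.96%, with log2 ratios of −0.10 and 0.18. Among the classes of this paragraph and the 3 compared, they were the one in which *Ctnnb1* cKO differed least from WT, though its value rests on 67 cells. *Ctnnb1* cKO was the highest library in each of these classes as well.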
